A study of Mus musculus with 12 samples.

Results

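The unfolded protein response was described in mouse liver through 10 genes: the transcription factors Xbp1, Atf4, Ddit3 and Atf3, the chaperones and folding helpers Hspa5, Creld2, Sdf2l1 and Dnajb9, the degradation component Herpud1 and the pseudokinase Trib3. The members were all array probes whose RefSeq accession maps to one of these symbols, that is, 12 of 39429 probes on the array and 10 of 20886 genes with a name. Atf4 and Dnajb9 had 2 probes each and the other 8 genes had 1. Where a gene had 2 probes, the brighter one stands for it and the other is given beside it.

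The livers came from 12 female C57BL/6N mice, 3 per diet, taken 6 months into feeding. The mice were 6 weeks old when bought and ate a low-fat normal formula diet. In Ctrl its carbohydrate was corn starch with sucrose, in RS resveratrol was added to that same diet, in DJ Dongjin rice took the place of both carbohydrates, and in DJ526 the rice was DJ526, a Dongjin line that makes resveratrol from a transferred biosynthesis gene. DJ526 and DJ thus differ in the transferred gene as well as in resveratrol, and no transgene, deletion or drug was common to the animals. Mice were housed by the cage. The authors describe random assignment of cages to the diets, and also a random division of the mice after acclimation. Where cages were assigned whole, cage and diet cannot be told apart. Each mouse gave 1 one-colour array.

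Proteins bound for secretion fold in the endoplasmic reticulum (ER). When unfolded protein builds up there, the membrane sensors IRE1, PERK and ATF6 are released from the chaperone BiP: IRE1 splices the Xbp1 mRNA, PERK favours translation of ATF4, and ATF6 is cut to release a transcription factor, and together these raise chaperones, degradation components and, under lasting stress, Ddit3 and its targets. The liver secretes most plasma proteins, and the response is known there from feeding, fatty liver and toxic injury.

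Part of this control is written in the promoters. The ER stress response element (ERSE), CCAAT and CCACG with 9 bases between them, is bound by ATF6 and XBP1 together with NF-Y, and ERSE-II, ATTGG and CCACG with 1 base between them, is a shorter form of it. Among RefSeq promoter windows of 300 bases on GRCm38.p6 (250 before and 50 after each start, both strands searched, 32851 windows), ERSE was found in 0.119% and ERSE-II in 0.0365%. Of the 10 member windows, 2 held ERSE, those of Hspa5 and Creld2, and 1 held ERSE-II, that of Herpud1. The 250 bases before the start are printed for these 3 genes. Hspa5 and Creld2 were also the pair whose levels followed each other most closely over the mice. Herpud1 followed neither, with a Pearson's r of -0.14 with Hspa5 and -0.09 with Creld2. The part of the elements in this was not tested. Capitals mark the element, which in Creld2 lies on the opposite strand. The windows are chr2:34771840-34772089 (Hspa5), chr15:88819396-88819645 (Creld2) and chr8:94386179-94386428 (Herpud1), all on the plus strand, and the elements begin at -65, -126 and -52 from the start.
Hspa5: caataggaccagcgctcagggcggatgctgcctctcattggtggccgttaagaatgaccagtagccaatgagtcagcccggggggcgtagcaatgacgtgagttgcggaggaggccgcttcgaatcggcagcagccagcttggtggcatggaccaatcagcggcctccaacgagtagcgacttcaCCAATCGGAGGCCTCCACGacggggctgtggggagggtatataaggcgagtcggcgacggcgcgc
Creld2: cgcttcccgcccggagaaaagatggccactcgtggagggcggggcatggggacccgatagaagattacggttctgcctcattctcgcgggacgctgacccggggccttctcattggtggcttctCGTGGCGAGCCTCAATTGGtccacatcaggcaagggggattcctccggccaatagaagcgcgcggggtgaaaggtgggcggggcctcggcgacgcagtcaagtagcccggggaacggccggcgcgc
Herpud1: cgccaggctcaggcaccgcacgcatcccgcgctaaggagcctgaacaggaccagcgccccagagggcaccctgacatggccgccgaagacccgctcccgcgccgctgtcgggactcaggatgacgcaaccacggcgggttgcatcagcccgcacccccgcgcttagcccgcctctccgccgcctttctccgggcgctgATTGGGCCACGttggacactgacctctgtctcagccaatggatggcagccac
The UPRE core TGACGTGG, the CRE TGACGTCA, the ATF4 composite site TGATGNAAT and the heat shock element (GAA, TTC and GAA, each 2 bases apart) were in 0.676%, 1.79%, 0.965% and 0.603% of all windows and in 0 of the 10 member windows, which says only that these letters are not in these windows.

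Per array, 73.0% to 80.8% of spots exceeded the background clearly. All 12 member probes were well above background on every array where they had a value, and none was saturated. The arrays lay on 3 slides of 4, with the 3 Ctrl mice and DJ replicate 1 on the first, DJ replicates 2 and 3 and RS replicates 1 and 2 on the second, and RS replicate 3 and the 3 DJ526 mice on the third. Slide and diet therefore largely coincide, and differences of the members from Ctrl are also given with the slide as a block. Blocked values rest on few mice, because no slide holds Ctrl together with RS or DJ526. The liver origin was seen in all 6 hepatocyte markers (Alb, Apoa1, Ttr, Cyp2e1, Serpina1a and Fgb), well above background on all 12 arrays. A level is the log2 signal of a probe relative to log2 of the array's 75th percentile, and a difference is between group means of such levels. Levels of one gene can be compared between mice but not with another gene's.

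The first comparison was of each diet with Ctrl. None of the 10 genes passed the adjusted threshold of 0.05 in any comparison (limma, Benjamini-Hochberg over all probes). Of all 39429 probes, 0% were called for RS, 0% for DJ and 0.00507% for DJ526, beside 0 of the 10 members each time. At an unadjusted p under 0.05 there was 1 member in RS, 2 in DJ and 2 in DJ526, where 6%, 5.25% and 10.8% of all probes reached that level. The median difference over the 10 genes was 0.09 for RS, 0.12 for DJ and 0.15 for DJ526, beside 0.03, -0.02 and 0.02 over all probes, and 7, 8 and 6 of the 10 differences were above 0. The standard errors ran from 0.13 (Xbp1) to 0.46 (Trib3) on the log2 scale. In whole liver a lower level may be fewer cells of a type or less RNA per cell, and these cannot be told apart. The 4 measured Kupffer cell markers had median differences from Ctrl of -0.36, -0.35 and -0.24 in RS, DJ and DJ526. The 4 measured lymphoid and plasma cell markers had 0.86, 0.79 and 1.17, with standard errors of single markers up to 0.97. Medians of the other marker lists lay between -0.36 and 0.17, and 0 markers were called. The part of cell content was not tested.

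**Figure D1:**
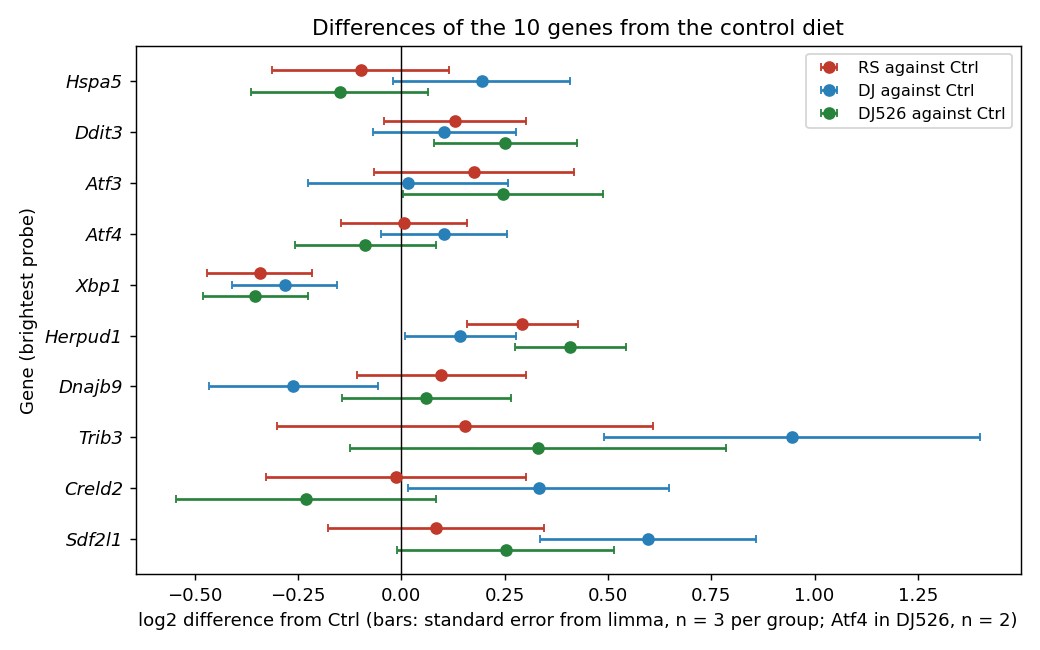
Difference of each member from Ctrl on the log2 scale (x axis) by gene (y axis) for RS, DJ and DJ526; points are differences between group means and bars are standard errors from limma. Xbp1 lies below 0 in each diet, at -0.34, -0.28 and -0.35, and Trib3 in DJ lies farthest to the right, at 0.95 with a standard error of 0.46.

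Xbp1, the factor made active by IRE1 splicing, was the only member that lay below Ctrl without overlap on all 3 other diets. Its level was 5.63, 5.15 and 5.17 in the 3 Ctrl mice, 4.98, 5.13 and 4.82 in RS, 5.08, 5.14 and 4.89 in DJ and 4.95, 4.95 and 4.98 in DJ526. All 9 mice on the other diets were below all 3 Ctrl mice, although the lowest Ctrl mouse (5.15) and the highest DJ mouse (5.14) were almost level. Of all probes, 4.32% had RS wholly below Ctrl, 5% had DJ there and 8.35% had DJ526 there, and the 3 comparisons share the same Ctrl mice. The difference from Ctrl was -0.34 in RS (standard error 0.13, unadjusted p = 0.0209, adjusted p = 0.746), -0.28 in DJ (unadjusted p = 0.0480, adjusted p = 0.949) and -0.35 in DJ526 (unadjusted p = 0.0180, adjusted p = 0.363), all from limma. Ctrl replicate 1 carried a large share of this: without it the differences were -0.19, -0.13 and -0.20. With the slide as a block they were -0.20, -0.24 and -0.05, and the part of the slide in the DJ526 difference cannot be told apart, since no slide holds both Ctrl and DJ526 mice. Between the 3 other diets and without the block, Xbp1 differed by -0.07 from DJ to DJ526 and -0.01 from RS to DJ526. With the block, DJ526 lay nearest to Ctrl of the 3. Within the third slide, the DJ526 mean of Xbp1 was 0.15 above RS replicate 3. Within the second slide, the RS mean was 0.04 above the DJ mean. The position of the probe is not given in the sources used here, so spliced and unspliced forms were not told apart.

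Atf4, the factor whose translation PERK favours, was 5.06, 5.53 and 4.97 in Ctrl, 5.16, 5.24 and 5.18 in RS, 5.38, 5.47 and 5.02 in DJ, and 5.01 and 5.19 in DJ526, where the spot of replicate 1 carried an outlier flag and gave no value. The groups overlapped, and its largest difference from Ctrl was 0.10 (DJ); in DJ526, with n = 2, it was -0.09. Blocked by slide, Atf4 differed from Ctrl by 0.14, 0.19 and 0.07 for RS, DJ and DJ526. The dimmer Atf4 probe gave -0.10, 0.07 and -0.05 without the block. Atf4 acts mainly through its translation, which these arrays do not read.

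Ddit3, which encodes CHOP, the factor of lasting ER stress, was -1.38, -1.72 and -1.64 in Ctrl, -1.39, -1.28 and -1.69 in RS, -1.18, -1.53 and -1.72 in DJ and -1.31, -1.56 and -1.12 in DJ526. All groups overlapped, and RS, DJ and DJ526 differed from Ctrl by 0.13, 0.10 and 0.25 (standard error 0.17; for DJ526, adjusted p = 0.619 from limma). Blocked by slide, these Ddit3 values were larger, 0.69, 0.40 and 1.06, with unadjusted p = 0.0236, 0.0668 and 0.00934 and adjusted p = 0.383, 0.557 and 0.271 from limma. Within the 3 slides, DJ replicate 1 was 0.40 above Ctrl, RS 0.29 above DJ and DJ526 0.36 above RS replicate 3. The blocked value of DJ526 adds up these steps between slides, and slide and diet cannot be told apart in it. Atf3, an early stress-induced factor of the same bZIP family, was -2.34, -3.12 and -2.80 in Ctrl, -2.61, -2.64 and -2.49 in RS, -2.71, -3.19 and -2.31 in DJ and -2.49, -2.76 and -2.28 in DJ526. The Atf3 differences from Ctrl were 0.18, 0.02 and 0.25 with a standard error of 0.24 (0.17, 0.04 and 0.15 blocked by slide), and single mice within Ctrl and within DJ were farther apart than any group means.

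Hspa5 encodes BiP, the main chaperone of the ER and the usual readout of the response. Its level was 6.29, 5.62 and 5.51 in Ctrl, 5.95, 5.63 and 5.55 in RS, 5.89, 6.26 and 5.86 in DJ and 5.33, 5.76 and 5.89 in DJ526. The highest and the lowest mouse were Ctrl replicate 1 and DJ526 replicate 1, 0.96 apart, and the groups overlapped. RS differed from Ctrl by -0.10, DJ by 0.19 and DJ526 by -0.15, each with a standard error of 0.21. From DJ to DJ526 the difference was -0.34 with the same standard error (adjusted p = 0.613 from limma). Blocked by slide, the Hspa5 values were -0.19, 0.08 and -0.08 from Ctrl and -0.16 from DJ to DJ526.

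Creld2, a chaperone-like ER protein that is induced with BiP, was 3.66, 2.58 and 2.56 in Ctrl, 3.33, 3.14 and 2.29 in RS, 3.21, 3.48 and 3.10 in DJ and 2.52, 2.59 and 3.00 in DJ526. The 3 DJ526 mice were below the 3 DJ mice without overlap, which 6.28% of all probes also were. That difference was -0.56 (standard error 0.32, adjusted p = 0.577 from limma), and blocking on the slide turned it to 0.35. No slide holds both groups, so diet and slide cannot be told apart there. From Ctrl, Creld2 differed by -0.01, 0.33 and -0.23 in RS, DJ and DJ526, and by 0.22, 0.28 and 0.63 with the block, so that the sign turned in RS and DJ526. In DJ526 against DJ, 0 of the 10 members were called where 0.0101% of all probes were, none had an unadjusted p under 0.05 (9.84% of all probes), and the median difference of the members was -0.13 beside 0.04 over all probes.

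Sdf2l1, a partner of the ER chaperone machinery, was 0.50, -0.33 and 0.12 in Ctrl, 0.42, -0.15 and 0.27 in RS, 0.33, 0.81 and 0.93 in DJ and 0.22, 0.00 and 0.81 in DJ526. The DJ mice were on average 0.60 above Ctrl (standard error 0.26, unadjusted p = 0.0438, adjusted p = 0.949 from limma), with DJ replicate 1 below Ctrl replicate 1. The value without Ctrl replicate 2 was 0.38. Blocked by slide, it rests on DJ replicate 1 and the Ctrl mice of the same slide and was 0.23. For RS and DJ526 the Sdf2l1 difference was 0.08 and 0.25, and -0.51 and -0.43 with the block. On all 3 Ctrl arrays and several others its spot carried a flag for an unusual local background.

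Dnajb9, the BiP co-chaperone also called ERdj4, was 1.82, 1.56 and 1.52 in Ctrl, 1.58, 2.21 and 1.39 in RS, 1.12, 1.62 and 1.37 in DJ and 1.56, 1.56 and 1.95 in DJ526. It was the only chaperone of the 4 whose mean in DJ was below that in Ctrl, by -0.26 (standard error 0.20, adjusted p = 1.00 from limma), and the groups overlapped. Its second, dimmer probe gave -0.18 for the same comparison. Within the slide that holds both groups, DJ replicate 1 was -0.51 from the Ctrl mean by the brighter Dnajb9 probe and 0.04 by the dimmer one, so that the probes disagreed in sign there. Blocked by slide, the brighter probe gave -0.11 for RS and 0.20 for DJ526 (0.10 and 0.06 without the block).

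Herpud1, a membrane component of the complex that sends misfolded ER proteins to the proteasome, was 6.02, 5.72 and 6.00 in Ctrl, 5.97, 6.41 and 6.24 in RS, 5.96, 5.99 and 6.21 in DJ and 6.18, 6.26 and 6.53 in DJ526. All 3 DJ526 mice were above all 3 Ctrl mice, as they were for 12.4% of all probes. The difference was 0.41 (standard error 0.13, unadjusted p = 0.0113, adjusted p = 0.313 from limma); RS and DJ were 0.29 and 0.14 above Ctrl. The Herpud1 value in DJ526 ranged from 0.30 to 0.48 when single mice were left out and was 0.22 blocked by slide, where RS and DJ gave 0.13 and 0.05.

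Trib3, a pseudokinase switched on by ATF4 and CHOP that also damps insulin signalling, spread more than any other member. It was 1.12, -0.39 and -0.29 in Ctrl, 0.53, 0.30 and 0.09 in RS, 0.37, 0.77 and 2.15 in DJ and 0.41, 0.29 and 0.74 in DJ526. DJ replicate 3 was the highest of the 12 mice and Ctrl replicate 2 the lowest, 2.53 apart. The mean of DJ was 0.95 above Ctrl (standard error 0.46, adjusted p = 0.956 from limma), but the difference was 0.42 without DJ replicate 3, 1.43 without Ctrl replicate 1 and 0.22 blocked by slide. Trib3 in RS and DJ526 differed from Ctrl by 0.15 and 0.33, and by -0.82 and -0.43 with the block, a change of sign. The groups overlapped.

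**Figure D2:**
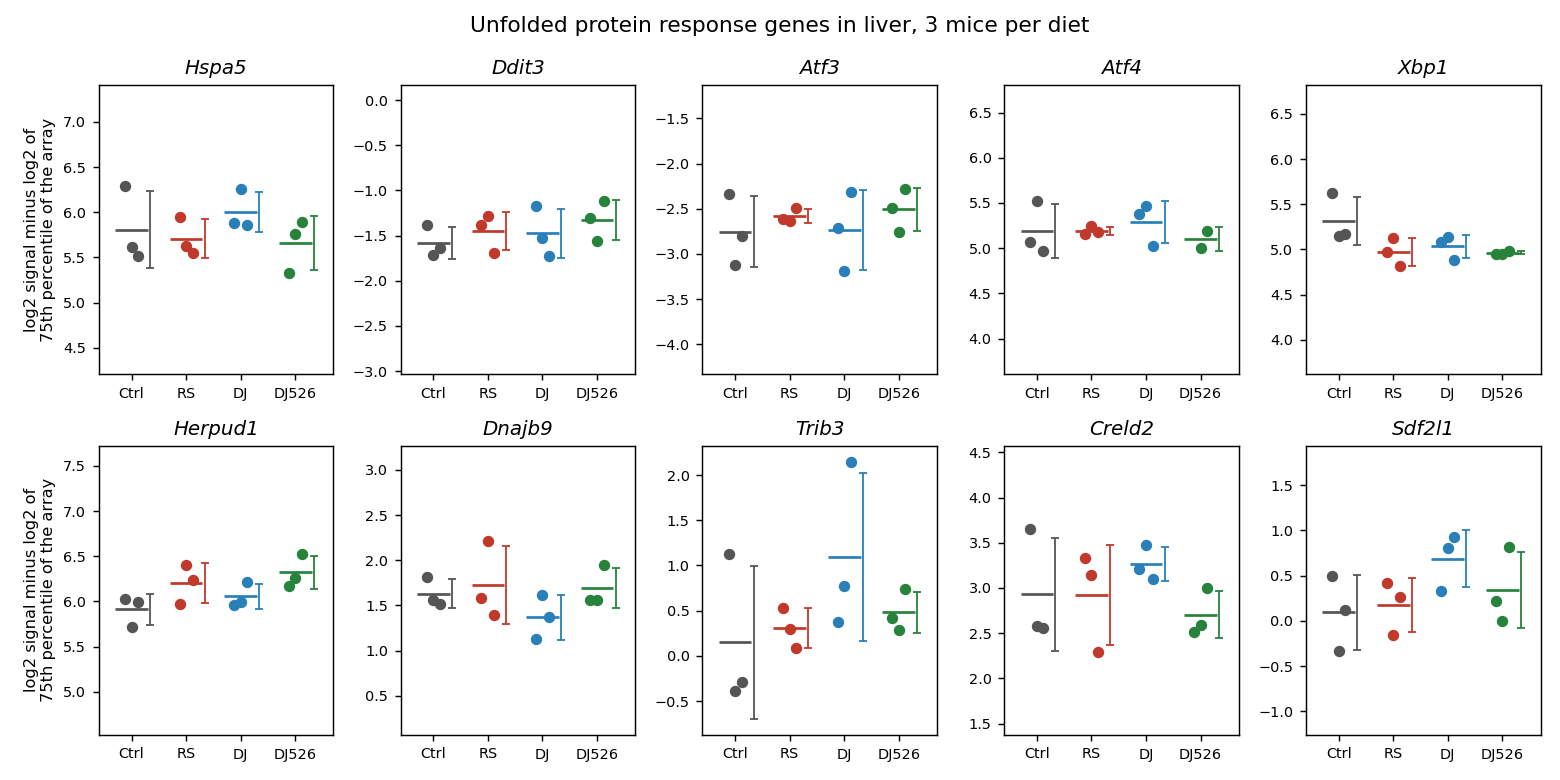
Level of each of the 10 genes (y axis, log2 signal relative to the array's 75th percentile) in the 3 mice of each diet (x axis); points are mice, horizontal lines group means and vertical bars 1 SD. All panels span the same number of log2 units, so that the wide scatter of Trib3 and the narrow DJ526 group of Xbp1 (4.95 to 4.98) can be read against each other.

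In the 2 remaining comparisons no member stood out. DJ526 against RS called 0 of 10 (background 0.00761%), with 0 members at an unadjusted p under 0.05 (background 5.51%) and a median of 0.03. The resveratrol effect on rice minus that on starch and sucrose also gave 0 of 10 (background 0%, and 6.14% unadjusted), with a member median of -0.11 and a largest single value of -0.77 for Trib3 (standard error 0.64).

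The members were then compared with each other from mouse to mouse. Over the 12 mice, Pearson's r was computed for all 45 pairs and was positive in 32, with a median of 0.16 and a range from -0.63 (Atf3 with Atf4) to 0.87. Of the 90 relations (r and Spearman's rho for each pair, 100000 permutations, Benjamini-Hochberg over the 90), 2 pairs passed on both. Hspa5 and Creld2 had r = 0.87 (permutation p = 0.00016, adjusted 0.0072) and rho = 0.91 (permutation p = 0.0001, adjusted 0.0072). Without the 2 mice farthest from the median of Hspa5, Ctrl replicate 1 and DJ526 replicate 1, r was 0.82. It was 0.85 after the group means were taken out and 0.86 after the slide means were, so that the relation was about as close within diets and within slides as over all mice. Trib3 and Sdf2l1 had r = 0.80 (permutation p = 0.00111, adjusted 0.025) and rho = 0.87 (permutation p = 0.00048, adjusted 0.0144). Their r was 0.65 without DJ replicate 3 and Ctrl replicate 2, 0.69 within groups and 0.76 within slides. The r of 0.56 between Xbp1 and Creld2 fell to 0.01 without Ctrl replicate 1 and RS replicate 3, although it was 0.86 within groups and 0.68 within slides; over all mice it did not pass the adjustment (permutation p = 0.0415, adjusted 0.363).

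**Figure D3:**
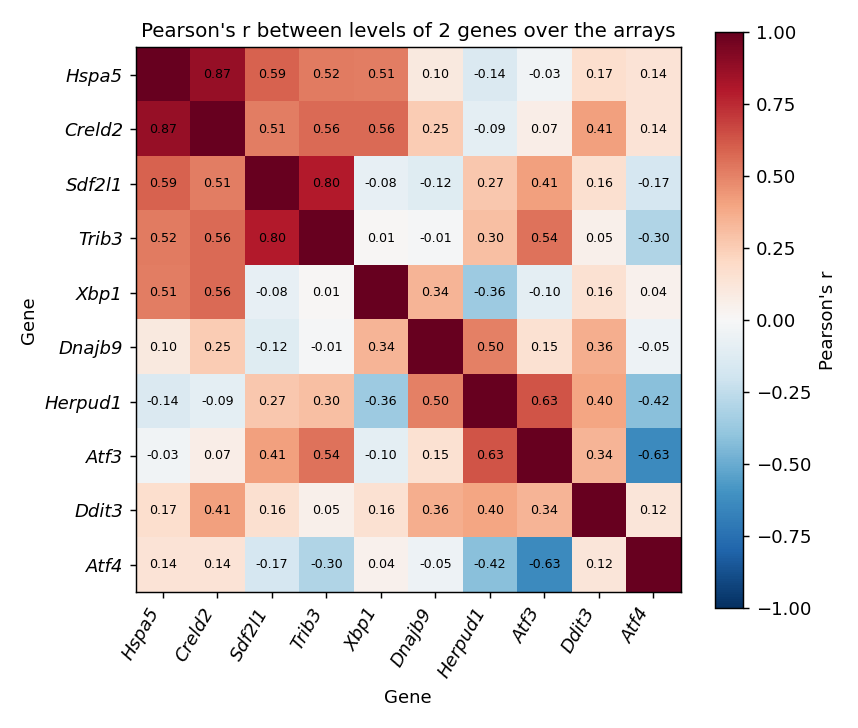
Pearson's r between the levels of each pair of members (both axes, genes) over the 12 mice, 11 for pairs with Atf4; the colour scale runs from -1 to 1. Hspa5 with Creld2 (0.87) and Sdf2l1 with Trib3 (0.80) are the darkest squares off the diagonal.

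The genes of these 2 pairs also had wide spreads within groups. The pooled SD within groups was 0.65 for Trib3, larger than that of 98.4% of probes of similar level (within 0.5 log2 units), 0.45 for Creld2 (larger than 96.2%), 0.37 for Sdf2l1 (93.1%), 0.28 for Dnajb9 (88.9%) and 0.30 for Hspa5 (88.7%). The 5 other genes stood between 67.3% and 79.1%. The lipogenic enzyme Fasn was lowest in replicate 1 of every diet, at levels of 2.02 (Ctrl), 2.13 (RS), 2.35 (DJ) and 2.17 (DJ526). Other feeding and fasting genes did not all follow it. Scd1 (6.48), Elovl6 (4.18) and Pnpla3 (-0.21) were lowest in replicate 3 within DJ, but in replicate 1 within Ctrl, RS and DJ526. The fasting genes Igfbp1 (5.41) and Pdk4 (0.12) were also lowest in replicate 1 within Ctrl. Among the replicate 1 mice, Ctrl replicate 1 was the highest of all mice in Hspa5, Creld2 and Xbp1. In Hspa5, RS replicate 1 was the highest RS mouse and DJ526 replicate 1 the lowest of all. The part of feeding state in these differences was not tested. For r with Hspa5, a gene with several probes was taken by the probe with the highest r, not by the brightest. The feeding and fasting list had a median r with Hspa5 of -0.23 over 12 genes. The 6 hepatocyte markers had a median of 0.43, with Serpina1a at 0.59, Cyp2e1 at 0.52, Alb at 0.50 and Apoa1 at -0.37. Markers of Kupffer, endothelial, stellate, bile duct and lymphoid cells had list medians between -0.26 and 0.18, and the pancreatic acinar gene Cela2a had -0.77. Cela2a does not stand for its list. The other acinar markers, Cpa1, Pnlip and Prss2, were well above background on only 11, 2 and 8 arrays and were not ranked. The part of cell content in these relations was not tested.

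All other genes, the remaining members among them, were ranked by likeness to Hspa5, each by its probe with the highest r. Among 15581 genes well above background on all arrays, the 5 with the highest r over the 12 mice were Manf (0.97), Hyou1 (0.90), Etfb (0.90), Lig3 (0.89) and Dnajb11 (0.88), given here as a description. Manf encodes a secreted ER-resident protein, Hyou1 a large ER chaperone and Dnajb11 the BiP co-chaperone ERdj3, while Etfb is a mitochondrial electron carrier and Lig3 a DNA ligase. Manf was 2.84, 1.96 and 1.87 in Ctrl, 2.66, 2.15 and 1.83 in RS, 2.25, 2.95 and 2.48 in DJ and 1.55, 2.17 and 2.44 in DJ526, the same order of high and low mice as in Hspa5 within Ctrl, RS and DJ526. Canx (calnexin) followed at 0.88 and Creld2 was the 7th of the ranking.

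**Figure D4:**
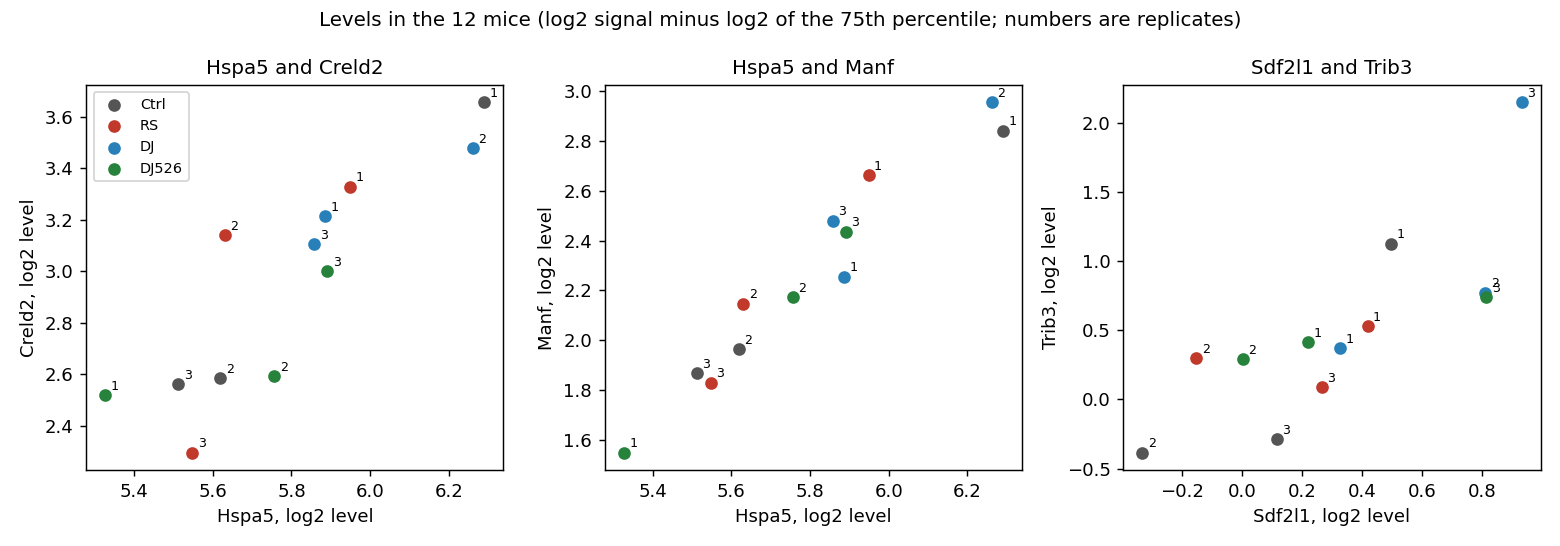
Levels of Hspa5 against Creld2, Hspa5 against Manf and Sdf2l1 against Trib3 (axes, log2 signal minus log2 of the 75th percentile) in the 12 mice, coloured by diet with replicate numbers. Mice of every diet lie along each trend; in the first and second panels Ctrl replicate 1 and DJ replicate 2 lie at the upper end.

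Likeness to Hspa5 differed between lists of related genes. Each gene was again taken by its probe with the highest r, not by the brightest, in the lists and over all genes. The medians and counts are therefore at or above those of any other choice of probe. Of 26 measured ER chaperones and folding enzymes, 6 (23.1%) had an r over 0.7 with Hspa5, Pdia3 (0.75) and Hsp90b1 (0.73) among them, and the median was 0.56. Of 24 genes of ER translocation and the secretory path, 6 (25%) did, led by Ssr3 (0.78), Sec23b (0.77) and Sec24d (0.76), with a median of 0.47. ER-associated degradation had a median of 0.22 over 21 genes, with Syvn1, the ubiquitin ligase HRD1, at 0.81, and the sensors and transducers had 0.19 over 14. The 29 targets of ATF4 and CHOP had a median of -0.17 and 0 over 0.7, whereas over all 15581 genes the median was 0.03 and 1.12% were over 0.7. The points share 12 arrays and their scaling, and genes are not independent replicates.

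**Figure D5:**
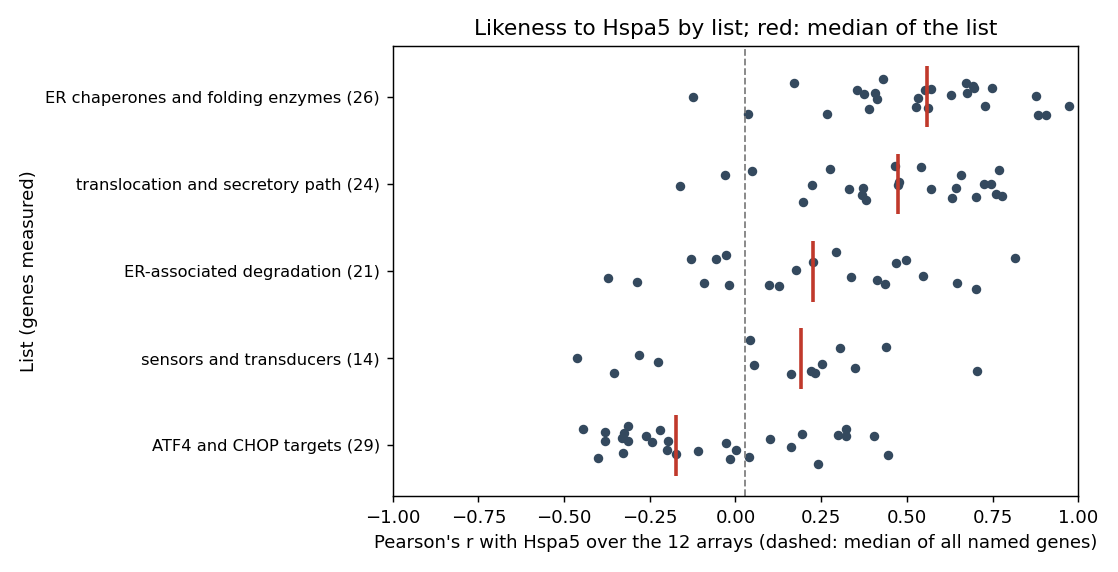
Pearson's r with Hspa5 over the 12 arrays (x axis) for each measured gene of 5 lists (y axis, number of genes in brackets). A gene with several probes is shown by its probe with the highest r. Red bars are list medians and the dashed line the median of all named genes (0.03). Chaperones (0.56) and secretory path genes (0.47) lie to the right of the dashed line and targets of ATF4 and CHOP (-0.17) to the left.

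The same lists were read against the diets, and 0 genes of any list were called in any comparison. Among 26 chaperones and folding enzymes, 7 differences from Ctrl were positive in RS, 17 in DJ and 5 in DJ526, with medians of -0.09, 0.04 and -0.07. The 24 genes of translocation and the secretory path were alike, with 6, 14 and 6 positive and medians of -0.07, 0.03 and -0.07. From DJ to DJ526, 2 of the 26 chaperones and folding enzymes were positive, with a median of -0.10 beside 0.04 over all probes. Of the 24 secretory path genes 6 were positive, with a median of -0.06. All probes were not matched to these lists in level, so a shift shared by bright probes was not tested. The 6 hepatocyte markers also lay lower in DJ526 than in DJ, with 0 positive and a median of -0.23. No slide holds both groups, and list values were not taken with the slide as a block, so diet and slide cannot be told apart there. At an unadjusted p under 0.05, Dnajc3, an inhibitor of PERK that works as a BiP co-chaperone, was -0.22 from Ctrl in RS (adjusted p = 0.808 from limma). In DJ526 it was 0.40 above RS without overlap (standard error 0.10, adjusted p = 0.347 from limma), as 5.15% of all probes were. Without overlap, 2 of the 26 RS values, 2 of DJ and 1 of DJ526 lay below Ctrl and 1 of DJ lay above it, where 4.32%, 5%, 8.35% and 4.41% of all probes did. They were Dnajc3 and Ero1b (-0.32) in RS, Ero1a and Pdia5 (-0.25 and -0.24) and, higher, Sdf2 (0.17) in DJ, and Txndc11 (-0.26) in DJ526.

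Of 30 measured targets of ATF4 and CHOP, 4 were higher and 0 lower in DJ at an unadjusted p under 0.05, where 5.25% of all probes reached it in either direction. In DJ526 3 were higher and 0 lower, no larger a share than the 10.8% of all probes. Sars, the cytosolic seryl-tRNA synthetase, was 2.61, 2.68 and 2.55 in Ctrl and 2.86, 2.90 and 2.95 in DJ, a difference of 0.28 (standard error 0.07, adjusted p = 0.640 from limma). Sesn2, a stress-induced regulator of mTORC1, was 0.68, 0.60 and 0.40 in Ctrl and 0.92, 0.88 and 1.1 in DJ, a difference of 0.41 (standard error 0.11, adjusted p = 0.774 from limma). The amino acid transporter subunits Slc7a5 and Slc3a2 were 0.61 and 0.30 above Ctrl in DJ526 without overlap (adjusted p = 0.472 and 0.422 from limma), as 12.4% of all probes were. Slc7a5 was high on all arrays of the third slide: RS replicate 3 had -2.62, above each DJ526 mouse (-2.88, -2.80 and -2.65), while RS replicates 1 and 2 on the second slide had -3.67 and -3.94. In RS, Atf5 was -0.35 from Ctrl and Shmt2 0.10, both without overlap, where 4.32% of all probes lay wholly lower and 5.85% wholly higher. In DJ, 4.41% of all probes lay wholly higher than Ctrl, as Sars and Sesn2 did. Medians of the list were 0.03, 0.15 and 0.10 for RS, DJ and DJ526, with 18, 19 and 19 of 30 positive.

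Of 14 sensors and transducers, 2 lay wholly above and 2 wholly below Ctrl in DJ526, where 12.4% and 8.35% of all probes did, 1 lay below it in RS and 0 in DJ. Eif2s1, the eIF2 subunit that PERK phosphorylates, was -0.15 from Ctrl in RS and -0.24 in DJ526, and Atf6b, a relative of ATF6, was -0.34 in DJ526 (adjusted p = 0.422 from limma), while Ern1 (IRE1 itself) and its relative Ern2 were 0.21 and 0.25 above Ctrl there. In ER-associated degradation, Selenos was 0.21 above Ctrl in RS and 0.23 in DJ526, and Vcp in RS, Rnf139 in DJ and Derl1 in DJ526 were -0.14, -0.12 and -0.19 from Ctrl. Of 24 secretory path genes, 3 lay wholly below and 1 wholly above Ctrl in RS, 2 below and 1 above in DJ and 1 below in DJ526. Of all probes, 4.32% lay wholly below and 5.85% wholly above Ctrl in RS, 5% and 4.41% in DJ, and 8.35% wholly below in DJ526. The translocon subunit Sec62 was 4.08, 4.01 and 4.07 in Ctrl, and all 9 other mice lay between 3.81 and 3.98, differences of -0.19, -0.13 and -0.11. These comparisons share the same Ctrl mice. Sec61b in RS (-0.17) and Lman1 in DJ (-0.19) were also below Ctrl without overlap, and the KDEL receptor Kdelr2 was above it in RS and DJ (0.08 and 0.10). None of these passed the adjusted threshold.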

How the data were processed

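Liver RNA of 12 mice (4 diets, 3 mice each) was hybridised to 12 Agilent one-colour arrays. The authors deposited scanner output of Feature Extraction (version 11.5.1.1, per the file headers), in which the signal intensity of a spot is linear and background-subtracted, and a table of globally normalized intensity values, used as an alternative; the latter is the former times 1 factor per array (0.959 to 1.08). Groups follow the labels; a supplementary sample sheet lists the array identifiers of RS and DJ exchanged, while its assay names go with the labels.

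Control spots and outlier spots were left out, the spots of a probe averaged, and log2 values taken relative to the 75th percentile of the array (68 probes lacked a value somewhere); the deposited files used here hold linear values, not log2. limma 3.58.1 (R 4.3.3) estimated 1 mean per group under a trended prior (median prior degrees of freedom 2.98, residual 8), with Benjamini-Hochberg adjustment over all 39429 probes; it was tested on simulated data. Probes were named through RefSeq accessions (27508 named). Outside the members, up to 2 genes per list and comparison with Ctrl were named, those with the largest difference among non-overlapping genes well above background. Dnajc3 in DJ526 against RS, Sdf2, Ern1, Kdelr2, Eif2s1 in DJ526 and the genes given by r were chosen after their values were seen. Fasn and the other feeding and fasting genes named were chosen likewise. The members and lists were chosen with earlier results of these data known. Correlations used Python 3.11.15, numpy 2.4.6, pandas 2.3.3 and scipy 1.17.1, figures matplotlib 3.10.9. Precision is limited by 3 arrays per group, where an exact permutation test cannot go below p = 0.1. Alternatives were other background corrections, normalizations, filters, priors, blocks and samples.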

Additional observations from a re-analysis of the deposited data

How the results depend on the processing

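No member passed the adjusted threshold under any alternative, and each difference of Xbp1, Herpud1 and Sdf2l1 given with an unadjusted p kept its sign under every alternative run; Sdf2l1 had no value in DJ against Ctrl under normexp, because all its Ctrl spots carried a flag for the local background. The median over the members is small against its spread and changed sign in some settings: with the slide as a block it was 0.14 in DJ526 against DJ (main value -0.13) and 0.04 in the difference of resveratrol effects (main -0.11), and it reached -0.06 in RS without Ctrl replicate 2, -0.02 in DJ526 against Ctrl and -0.05 in DJ526 against RS without DJ526 replicate 3. The correlation of Hspa5 with Creld2 lay between 0.83 and 0.92 and that of Trib3 with Sdf2l1 between 0.74 and 0.82 when single mice were left out; these alternatives were chosen after seeing the data.

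The numbers of called probes over the whole array are few and moved with most settings; the cause was not tested. For DJ526 against Ctrl (main 2) they were 0 with normexp on the median pixel, 9 with quantile normalization, 4 over probes well above background, 0 without a trend in the variance prior, and 0 with the slide as a block, with the groups compared alone or by the methods' t-test. For DJ526 against DJ (main 4) they were 1, 27, 14 and 11 under the first 4 of these, and 0 with the groups compared alone or by the t-test. For DJ526 against RS (main 3) they were 1 with normexp, 8 over probes well above background, 1 without a trend, 40 with the slide as a block, and 0 with the groups compared alone or by the t-test. With the slide as a block there were also 1 in RS and 8 in DJ against Ctrl and 17 in the difference of resveratrol effects, each 0 in the main fit, with 2367, 2071 and 2422 probes at an unadjusted limma p under 0.05. With single mice left out the counts ranged from 0 to 4 (RS against Ctrl), 0 to 1 (DJ against Ctrl), 0 to 166 (DJ526 against Ctrl), 0 to 107 (DJ526 against DJ), 0 to 28 (DJ526 against RS) and 0 to 18 (difference of effects); 166, 107 and 28 came without RS replicate 3 and 18 without DJ replicate 1.

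Same-numbered mice of different groups did not consistently deviate together: the correlation of their deviations from the group means was -0.35 to 0.41 over 18 pairs, with 6 over 0.1 (14 of 36 pairs with different numbers were), so the replicate number was not taken to pair samples, although replicate 1 of RS and of DJ526 had the highest value, 0.41. With the replicate number as a block, 0 probes were called in DJ526 against Ctrl, against DJ and against RS (2, 4 and 3 without it), and the differences of Xbp1 and Herpud1 did not move.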
